A study of Mus musculus with 16 samples.

Results

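The genes described here are the 3 uncoupling proteins Ucp1, Ucp2 and Ucp3 and 5 further genes of heat production, Cidea, Dio2, Adrb3, Prdm16 and Otop1. They were chosen by name as the rows of the count table whose gene identifier, without its version, carries 1 of these symbols, which gave 8 of 55385 genes. All 8 had counts, although Adrb3 had none in heart. RNA was sequenced from brown and white adipose, muscle, heart, liver, kidney, lung and spleen of male C57BL/6 wild-type mice, bought at 12 weeks of age and kept for 10 to 14 days before the experiment. The fed mice had free access to chow and the fasting mice went without food for 24 h, and all were killed in the morning. Each library was made from the pooled tissue of 3 mice, so that each tissue had 1 fed and 1 fasting library, 16 in all. The depot of the white adipose tissue and the muscle sampled were not given in the sources used here.

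Library totals ran from 14245178 counts in fasting brown adipose to 36069968 in fasting lung, with a median of 22841211 over the fed and 26602213 over the fasting libraries. A count of 3 in a library, used here as the floor of detection, was worth between 0.0832 and 0.211 CPM, the count scaled to the total of its library. The marker lists of adipocytes, skeletal muscle, cardiomyocytes, hepatocytes, kidney tubule, lung epithelium and B cells were each highest in white adipose, muscle, heart, liver, kidney, lung and spleen. In brown adipose, the summed level of 8 skeletal muscle genes was 2624 CPM fed and 1167 CPM fasting, led by Myh4 and Acta1. In fasting white adipose, 6 kidney tubule genes summed to 748 CPM against 67.9 CPM fed, nearly all of it Lrp2 at 710 CPM, with Kap at 18.2 CPM against 20.4 CPM fed. In the same library 6 lung epithelium genes summed to 129 CPM against 3.52 CPM fed, nearly all of it Foxj1, with Sftpc under 1 CPM in both libraries, and 5 B cell genes to 82.7 CPM against 346 CPM. In lung, fed and fasting, the T cell genes summed to 75.2 and 18.3 CPM, the B cell genes to 343 and 177 CPM and 7 cardiomyocyte genes to 1099 and 561 CPM. The part of other cell types in the white adipose and lung results was not tested. In muscle, heart and liver, Cox7a1, Cox8b or Elovl3 were also high, so the list of 6 brown adipocyte genes outside the members is not specific to brown adipose.

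Brown adipocytes burn fuel to make heat. Noradrenaline from sympathetic nerves acts on the beta3-adrenergic receptor (Adrb3), which raises cyclic AMP, frees fatty acids and switches on Ucp1, a carrier of the inner mitochondrial membrane that lets protons flow back without making ATP. Dio2 turns thyroxine into the active thyroid hormone inside the cell, Prdm16 is a transcriptional regulator of brown fat identity, Cidea is a lipid droplet protein, and Otop1 is a proton channel known from taste cells and brown fat. Ucp2, found in many tissues, and Ucp3, found mainly in muscle and brown fat, share the carrier fold, but their roles in heat production are much less clear, and Ucp3 is known to rise in muscle when food is withheld.

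On GRCm38, Ucp1 lies on chr8:83290352-83298452 (plus strand), Adrb3 on chr8:27225776-27250616 (minus strand), Prdm16 on chr4:154316125-154636873 (minus strand), Otop1 on chr5:38275972-38304217 (plus strand) and Dio2 on chr12:90724552-90738438 (minus strand). Ucp3 at chr7:100472990-100486432 and Ucp2 at chr7:100493337-100502020 are neighbours on the plus strand, with 6904 bases from the end of Ucp3 to the start of Ucp2. The 250 bases before the RefSeq start site are shown for Ucp3 and Ucp2, neighbours that both rose with fasting in most tissues, for Ucp1 and Otop1, whose levels over the libraries were the most alike among the 8 genes, and for Dio2. They are RefSeq sequences of GRCm38.p6, each 5′ to 3′ on the strand of its gene, from the windows chr7:100472741-100472990, chr7:100493108-100493357, chr8:83290098-83290347, chr5:38277154-38277403 and chr12:90739039-90739288. The RefSeq starts are not those of the gene intervals above, which come from the annotation of the count tables. The Otop1 window lies inside its gene interval, the Ucp2 window runs into its interval, and the Dio2 window lies further upstream of its own. Capitals mark AGGTCA, the core of many nuclear receptor sites, TGACGTCA, the full cyclic AMP response element, and GGGCGG, the GC box, on either strand. No 2 of these matches overlap.
Ucp3: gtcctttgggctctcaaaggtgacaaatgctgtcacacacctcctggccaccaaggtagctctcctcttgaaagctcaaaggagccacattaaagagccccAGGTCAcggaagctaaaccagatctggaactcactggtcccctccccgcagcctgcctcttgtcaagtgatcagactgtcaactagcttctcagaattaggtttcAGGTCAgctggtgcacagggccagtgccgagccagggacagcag
Ucp2: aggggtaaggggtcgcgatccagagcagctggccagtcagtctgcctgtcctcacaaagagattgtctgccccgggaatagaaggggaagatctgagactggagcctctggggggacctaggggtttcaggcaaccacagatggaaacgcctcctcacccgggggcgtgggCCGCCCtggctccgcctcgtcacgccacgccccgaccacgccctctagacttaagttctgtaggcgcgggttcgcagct
Ucp1: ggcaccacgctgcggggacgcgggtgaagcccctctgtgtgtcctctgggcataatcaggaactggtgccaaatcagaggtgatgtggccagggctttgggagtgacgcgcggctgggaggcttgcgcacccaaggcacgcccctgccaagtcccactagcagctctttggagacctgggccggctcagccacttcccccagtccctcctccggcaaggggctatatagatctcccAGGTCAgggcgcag
Otop1: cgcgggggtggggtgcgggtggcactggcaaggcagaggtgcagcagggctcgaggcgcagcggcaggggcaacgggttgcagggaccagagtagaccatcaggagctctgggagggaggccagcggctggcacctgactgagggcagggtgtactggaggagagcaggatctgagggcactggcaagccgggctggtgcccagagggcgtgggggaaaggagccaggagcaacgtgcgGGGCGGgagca
Dio2: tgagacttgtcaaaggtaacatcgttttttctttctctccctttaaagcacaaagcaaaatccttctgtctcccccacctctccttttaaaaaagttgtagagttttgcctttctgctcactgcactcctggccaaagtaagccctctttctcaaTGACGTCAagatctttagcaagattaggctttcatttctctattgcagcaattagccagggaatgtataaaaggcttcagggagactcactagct

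AGGTCA stood at 149 and at 44 bases before the start of Ucp3 and at 14 bases before that of Ucp1, counted to its first base, and 14.02% of the 32851 promoters of the same length hold it. TGACGTCA stood at 95 bases before the start of Dio2 and occurs in 1.55% of promoters. GGGCGG stood at 79 bases before the start of Ucp2 and at 11 bases before that of Otop1 (32.7% of promoters). Of 6 members with a RefSeq promoter, 2 held AGGTCA, 1 held TGACGTCA and 3 held GGGCGG. A match describes the letters and shows no binding.

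Within a tissue, a gene was called where log2 of (CPM fasting + 0.01) over (CPM fed + 0.01) was beyond 0.5 in size and the two-sided Fisher's exact test on its counts gave p under 0.01. This rule is the one stated in the study's methods. Such a call compares 2 libraries, not the conditions, since there was no replicate pool, and the exact 95% intervals given beside ratios cover counting error only. In bulk tissue, fewer cells of a type and less RNA per cell cannot be told apart. Over the 64 pairs of a member and a tissue, 17 were called higher and 8 lower in fasting. Over all genes with a count, the share called ran by tissue from 2.31% to 13.2% higher and from 1.62% to 9.52% lower. The higher calls were 7 for Ucp2, 6 for Ucp3, 2 for Ucp1 and 2 for Cidea. The lower calls were 2 each for Dio2, Adrb3 and Prdm16 and 1 each for Ucp1 and Otop1.

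**Figure D1:**
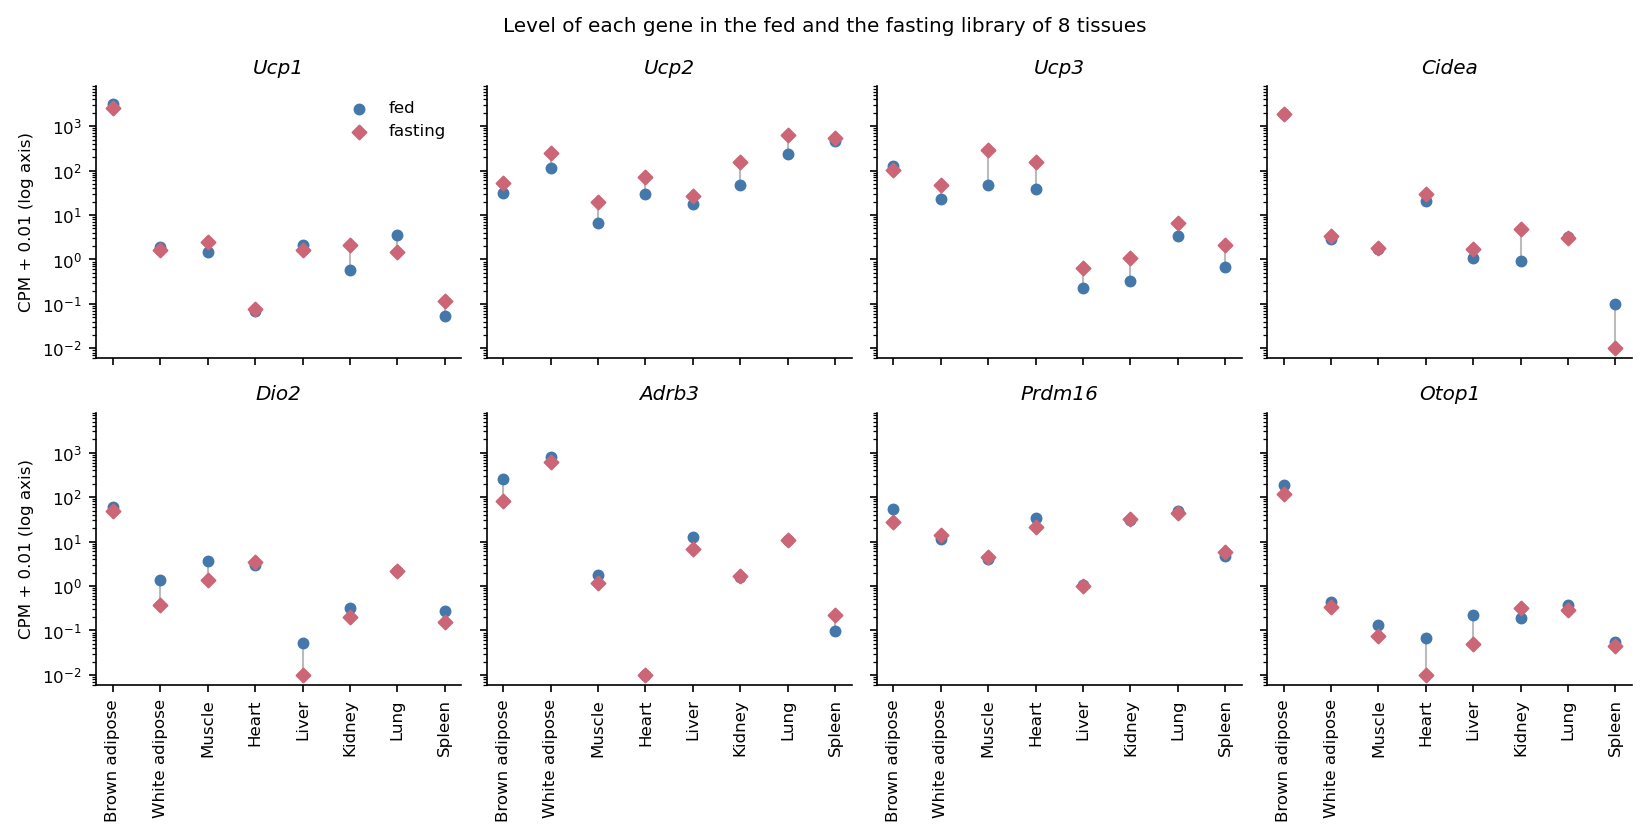
Level of each of the 8 genes as CPM + 0.01 on a log axis (0.01 is 0 counts) in the fed (circle) and the fasting (diamond) library of each tissue, 1 library each. Ucp1, Cidea and Otop1 pass 100 CPM in brown adipose alone, Adrb3 is highest in white adipose, and Ucp2 lies above its fed level in all 8 tissues.

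Ucp1 was almost entirely a transcript of brown adipose. It stood at 3132 CPM in fed and 2498 CPM in fasting brown adipose, which was 99.7% and 99.6% of its summed CPM over the 8 fed and the 8 fasting libraries. The fasting level was 0.798 of the fed level (0.787 to 0.808), a fall of 0.33 on the log2 scale that did not reach the size required for a call. In every other library Ucp1 was under 4 CPM. It was called higher in kidney, from 0.579 to 2.13 CPM (13 and 55 counts), and in muscle, from 1.45 to 2.46 CPM (35 and 76 counts). It was called lower in lung, from 3.49 to 1.44 CPM (105 and 52 counts). Liver went from 2.08 to 1.64 CPM and white adipose from 1.93 to 1.604 CPM, neither called, while heart and spleen held 1 to 3 counts a library. The order of lung, muscle, liver, white adipose and kidney is not settled, since the fed and fasting levels of neighbours in it overlap. The call in muscle had an exact Fisher p of 0.00963, 0.0356 after Benjamini-Hochberg adjustment over all genes with a count there.

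The small Ucp1 signals of kidney and lung went opposite ways, while the summed adipocyte markers were higher in the fasting library of both. The 8 adipocyte markers summed to 112 CPM fed and 183 CPM fasting in kidney, and to 173 and 282 CPM in lung, where Ucp1 fell. The markers did not move together. In kidney, Fabp4 went from 46.1 to 80.0 CPM and Lipe from 24.7 to 56.4 CPM, while Plin1, which coats the lipid droplet, went from 5.70 to 3.61 CPM and Lep from 1.74 to 0.427 CPM. Adipoq, by contrast, was at 7.44 and 8.26 CPM there. In lung 5 of the 8 were higher in fasting, among them Fabp4 at 28.4 and 60.8 CPM, Lipe at 60.6 and 109 CPM and Adipoq at 9.32 and 13.9 CPM, and Plin1, Lep and Retn were lower. The brown adipocyte list outside the members summed to 10.6 and 11.6 CPM in kidney and 43.1 and 41.8 CPM in lung, and Zic1 had no count in either kidney library. In kidney that sum was mostly Cox7a1, at 8.87 CPM fed and 6.91 CPM fasting, while Cox8b went from 6 to 34 counts and Kcnk3, a potassium channel, from 20 to 57, and both were called higher. On the longer list of brown adipocyte genes, 7 of the 26 above the floor were called higher in kidney and 0 lower, where 2.77% and 3.93% of all genes with a count were called, and Slc36a2 went from 32 to 84 counts. On this list Acot2 went from 28.3 to 129 CPM and Plin5 from 4.28 to 15.9 CPM in kidney, and both were also called higher in muscle and liver. Letmd1, at 51.9 and 55.7 CPM, and P2rx5, at 11.98 and 12.5 CPM, were nearly level in kidney. These genes were named after their values were seen. In muscle the adipocyte markers summed to 228 and 208 CPM. The part of fat in these values was not tested.

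Ucp3, the paralog known from muscle, showed the largest changes of the 8 genes in striated muscle. It rose from 46.2 to 288 CPM in muscle, a ratio of 6.23 (5.86 to 6.64), and from 38.6 to 160 CPM in heart, a ratio of 4.14 (3.803 to 4.52). It doubled in white adipose, from 23.5 to 47.0 CPM (ratio 1.999, 1.81 to 2.21), and in lung, from 3.33 to 6.68 CPM. In spleen it went from 0.662 to 2.16 CPM and in kidney from 0.312 to 1.09 CPM, both called higher on 7 to 60 counts a library. In spleen the 4 erythroid genes also went from 3411 to 8112 CPM, and their part in the Ucp3 value was not tested. The kidney call was at an adjusted exact Fisher p of 0.0112. Liver, at 5 and 16 counts, was not called. Brown adipose went the other way and was not called, at 126 CPM fed and 104 CPM fasting (ratio 0.831, 0.777 to 0.888). In the fed libraries brown adipose thus held the highest Ucp3 level, with 52.7% of the summed fed CPM, and in the fasting libraries muscle did, with 47.2%. Brown adipose also held less skeletal muscle RNA in the fasting library, as given above, and its part in the Ucp3 values there was not tested.

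Ucp2, the widely expressed paralog, was higher in the fasting library of all 8 tissues and called in 7. The steepest rises were in kidney, from 46.8 to 156 CPM (ratio 3.33, 3.12 to 3.57), in muscle, from 6.65 to 19.4 CPM (2.92, 2.45 to 3.50), and in lung, from 234 to 630 CPM (2.69, 2.62 to 2.76). Heart rose from 30.1 to 70.6 CPM, white adipose from 116 to 249 CPM, brown adipose from 31.2 to 53.1 CPM and liver from 17.3 to 26.7 CPM. Spleen, the highest of the fed libraries at 475 CPM, was at 548 CPM fasting, a log2 change of 0.21 that was not called. All tissues of a treatment came from 1 set of 3 mice, so these rises are not independent.

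**Figure D2:**
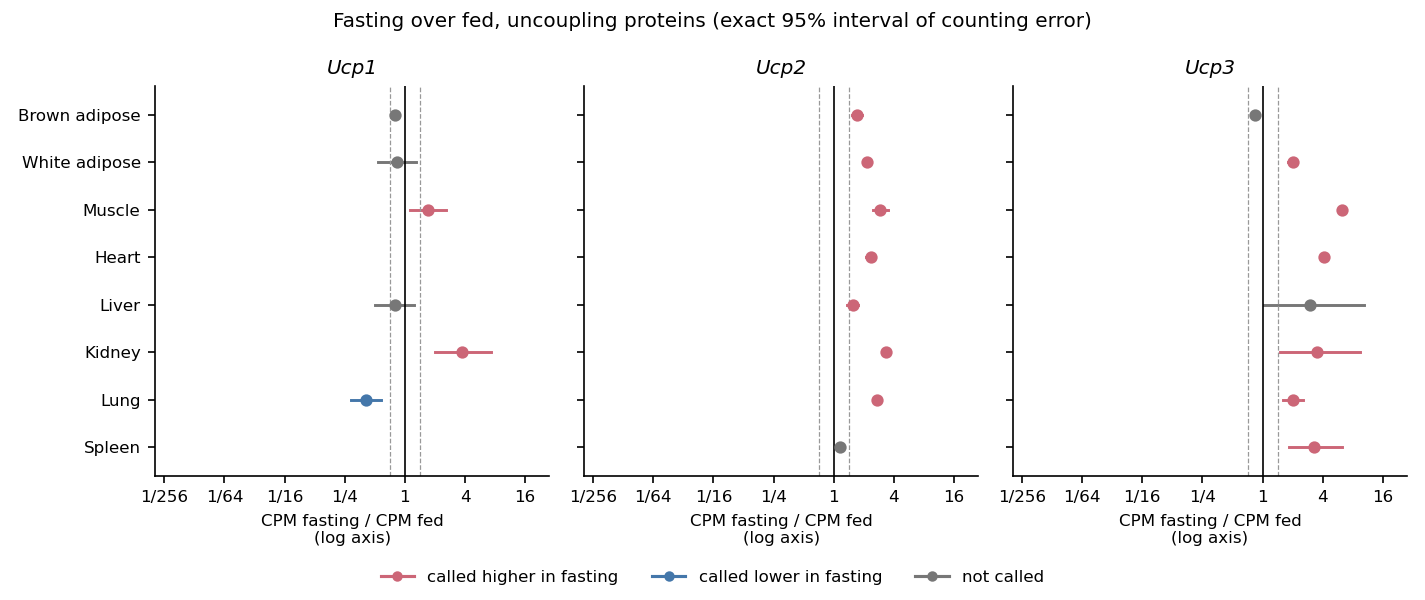
Ratio of fasting to fed CPM of Ucp1, Ucp2 and Ucp3 in each tissue on a log axis, with the exact 95% interval of counting error. Dashed lines mark a log2 change of 0.5 either way, and tissues at 3 counts or fewer in both libraries are left out. Ucp2 lies right of 1 in every tissue, Ucp3 in every tissue but brown adipose, and Ucp1 on both sides.

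Per length, a different paralog led in different tissues. In TPM, which scale counts by exon length as well as depth and so allow a comparison of levels between genes, fed brown adipose held 5662 of Ucp1, 119 of Ucp3 and 13.2 of Ucp2. Fed muscle held 55.2 TPM of Ucp3 against 3.56 of Ucp2 and 3.32 of Ucp1. Fed spleen and lung held 165 and 94.6 TPM of Ucp2 and at most 6.03 TPM of either paralog. With fasting, Ucp3 reached 350 TPM in muscle and 162 TPM in heart, and Ucp2 reached 260 TPM in lung. Ucp2 remained the most abundant of the 3 in white adipose, at 52.4 TPM fed and 114 TPM fasting, with Ucp3 at 23.7 and 48.0 TPM. The deposited exon length was 6989 bases for Ucp2, 3135 for Ucp3 and 1636 for Ucp1, and a longer length gives a lower TPM for the same count.

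Adrb3, the receptor at the head of the pathway, was highest in white adipose and fell most in brown adipose. White adipose held 787 CPM fed and 615 CPM fasting, a ratio of 0.782 (0.766 to 0.799) that was not called. Brown adipose fell from 250 to 82.8 CPM, a ratio of 0.331 (0.310 to 0.354). Liver fell from 12.4 to 6.93 CPM and was called, lung was at 10.85 and 10.98 CPM, kidney and muscle were under 2 CPM and heart had no count in either library. The lowest white adipose value was thus above the highest brown one. Adrb3 shares 839 exon bases with Gm45470 on the opposite strand, and that gene had at most 450 counts in any library. Opposite-strand genes also share 305 exon bases with Ucp2 (Dnajb13), 100 with Dio2 (at most 34 counts) and 109 with Prdm16 (at most 1 count). Dnajb13 had at most 303 counts in any library, and its count in fed muscle, where Ucp2 had 160, is not given here. Adrb1, the beta1-adrenergic receptor, fell in brown adipose from 47.0 to 14.04 CPM.

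Dio2, which activates thyroid hormone, stood at 58.9 CPM fed and 48.9 CPM fasting in brown adipose (ratio 0.829, 0.751 to 0.914, not called), 84.7% and 86.4% of its summed CPM over the fed and over the fasting libraries. It was called lower in muscle, from 3.57 to 1.36 CPM (86 and 42 counts), and in white adipose, from 1.33 to 0.365 CPM (31 and 10 counts). Heart, at 2.96 and 3.41 CPM, and lung, at 2.196 and 2.19 CPM, were not called. Muscle stood above heart and lung in the fed libraries and below them in the fasting ones.

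Prdm16, the regulator of brown fat identity, was not particular to brown adipose in these libraries. Its level was 54.9 CPM in fed and 28.2 CPM in fasting brown adipose, 48.6 and 44.5 CPM in lung, 31.3 and 32.6 CPM in kidney and 33.9 and 21.7 CPM in heart. It fell in brown adipose (ratio 0.514, 0.456 to 0.579) and in heart (0.639, 0.557 to 0.733). White adipose, at 11.6 and 14.4 CPM, spleen, muscle and liver were lower and not called. Brown adipose was thus the highest of the fed libraries and came after lung and kidney among the fasting ones.

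Otop1, like Ucp1, was nearly all in brown adipose, with 99.2% and 99.1% of its summed CPM. It fell from 184 to 120 CPM there, a ratio of 0.649 (0.611 to 0.688), and no other library was above 0.43 CPM, on at most 11 counts. Cidea, by contrast, was level in brown adipose at 1838 and 1882 CPM, a log2 change of 0.03. It rose in heart, its next highest tissue, from 20.3 to 29.95 CPM (ratio 1.47, 1.28 to 1.70), and in kidney from 0.936 to 4.89 CPM (5.22, 3.27 to 8.73; 21 and 126 counts). In heart the 8 adipocyte markers summed to 428 CPM fed and 974 CPM fasting, led by Fabp4 at 370 and 831 CPM, with Adipoq at 0.871 and 0.262 CPM, and their part in the Cidea rise was not tested. In kidney Cidea and Ucp1 thus rose beside each other from low counts, whereas white adipose, lung, muscle and liver were between 1.09 and 3.32 CPM for Cidea and not called.

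**Figure D3:**
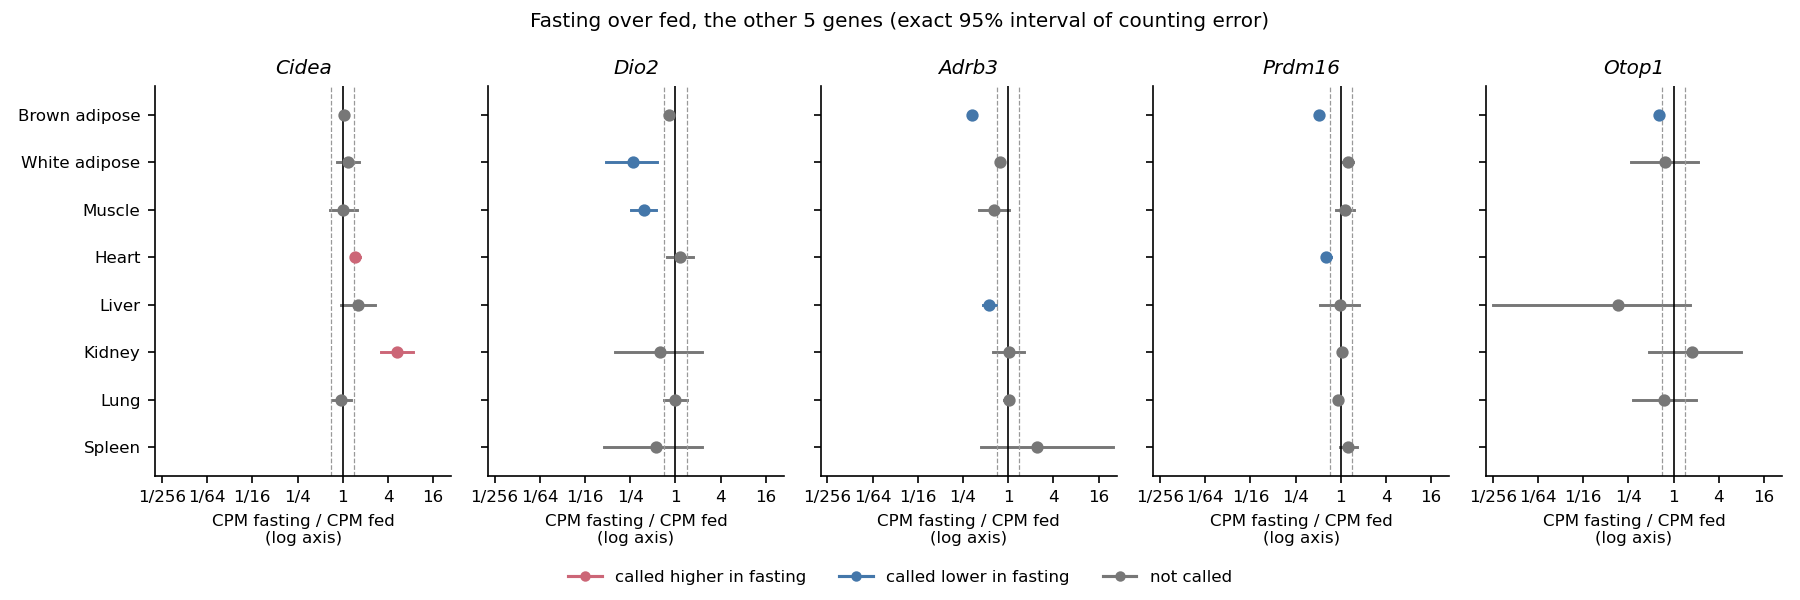
Ratio of fasting to fed CPM of Cidea, Dio2, Adrb3, Prdm16 and Otop1 in each tissue on a log axis, with the exact 95% interval of counting error, dashed lines at a log2 change of 0.5 either way and tissues at 3 counts or fewer in both libraries left out. In brown adipose Adrb3, Prdm16 and Otop1 lie left of the dashed line, and Cidea and Dio2 between the lines.

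Read by tissue, brown adipose had 1 member higher (Ucp2) and 3 lower (Adrb3, Prdm16 and Otop1), where 5.39% and 7.58% of all genes with a count were called higher and lower. Ucp1, the effector, thus kept 0.798 of its level while its receptor kept 0.331. The adipocyte markers summed to 11191 and 11075 CPM there and the brown adipocyte list outside the members to 1454 and 1445 CPM. Within the first sum Fabp4 went from 5741 to 6627 CPM, whereas Plin1 went from 1259 to 928 CPM, Lipe from 1443 to 1111 CPM, Cfd from 1158 to 959 CPM and Lep from 62.2 to 4.14 CPM. Kidney had 4 higher and none lower (background 2.77% and 3.93%), heart and muscle 3 higher and 1 lower each (4.33% and 5.8% in heart, 4.42% and 9.39% in muscle). White adipose and lung had 2 higher and 1 lower each (13.2% and 5.84% in white adipose, 2.68% and 6.49% in lung). Liver had 1 of each (4.46% and 9.52%), and spleen 1 higher and none lower (2.31% and 1.62%). The median log2 change of the members above the floor ran from -0.30 in brown adipose to 1.25 in kidney, against -0.14 to 0.07 for all genes with at least 1 CPM in a library.

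How far these calls depend on the spread between pools, which the design does not measure, was gauged with edgeR's exact test at an assumed coefficient of variation. At 0.2, 10 of the higher and 4 of the lower calls passed. The higher ones that did not pass were Ucp2 in brown adipose and liver, Ucp3 in white adipose, lung and kidney, Ucp1 in muscle and Cidea in heart. The lower ones that passed were Adrb3 in brown adipose, Dio2 in muscle and white adipose and Ucp1 in lung, and the calls of Prdm16, of Otop1 and of Adrb3 in liver did not pass. At 0.4, 1 passed, Ucp3 in muscle. The common coefficient of variation of the fit over tissues was 0.219. That value holds differences of the response between tissues and no spread between replicate pools, so it cannot say which assumed value applies.

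Across the 8 tissues, with tissue as a block and 23580 genes fitted in edgeR, 1.87% of genes differed between fasting and fed at an adjusted p under 0.05, and Ucp2 was 1 of them. It was higher in fasting by 1.12 (SE 0.16) on the log2 scale, at an adjusted p of 0.0113 and in 8 of 8 tissues. It was called with any 1 tissue left out, at adjusted p of 0.00810 to 0.0387. All tissues of a treatment came from 1 set of 3 mice. The p-values of this fit and the next ones thus measure spread between tissues and not between mice. Ucp3 had a log2 difference of 1.39 (SE 0.31), was higher in 7 of 8 tissues and missed the threshold at an adjusted p of 0.0500166. The call of Ucp3 turned on the setting. It passed without brown adipose at 0.0222, and with DESeq2's Wald test at 0.000149, and did not pass without muscle at 0.109 or without heart at 0.137. The other 6 members were at adjusted p of 0.215 to 0.999, with log2 differences of 0.48 for Cidea, 0.00 for Ucp1, -0.10 for Prdm16, -0.50 for Otop1, -0.53 for Adrb3 and -0.56 for Dio2.

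Whether the response differed between groups of tissues was tested with interaction terms. For Ucp3 the fasting response in the adipose tissues, which pools the higher value of white adipose with the lower one of brown adipose, differed from that in the other 6 tissues by -1.68 (SE 0.40) on the log2 scale and was not called, at an adjusted p of 0.0699, where 1.64% of genes were called. The adjusted p of this term for Ucp3 was between 0.00267 and 0.239 over the alternatives. The other 7 members were at 0.428 or more. In muscle and heart the response of Ucp3 differed from that in the other 6 tissues by 1.59 (SE 0.43), at an adjusted p of 0.557, and was not called. No gene passed this test in edgeR (0% of 23580), although 1539 had an unadjusted p under 0.05, and DESeq2 called 123 genes, no member among them.

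**Figure D4:**
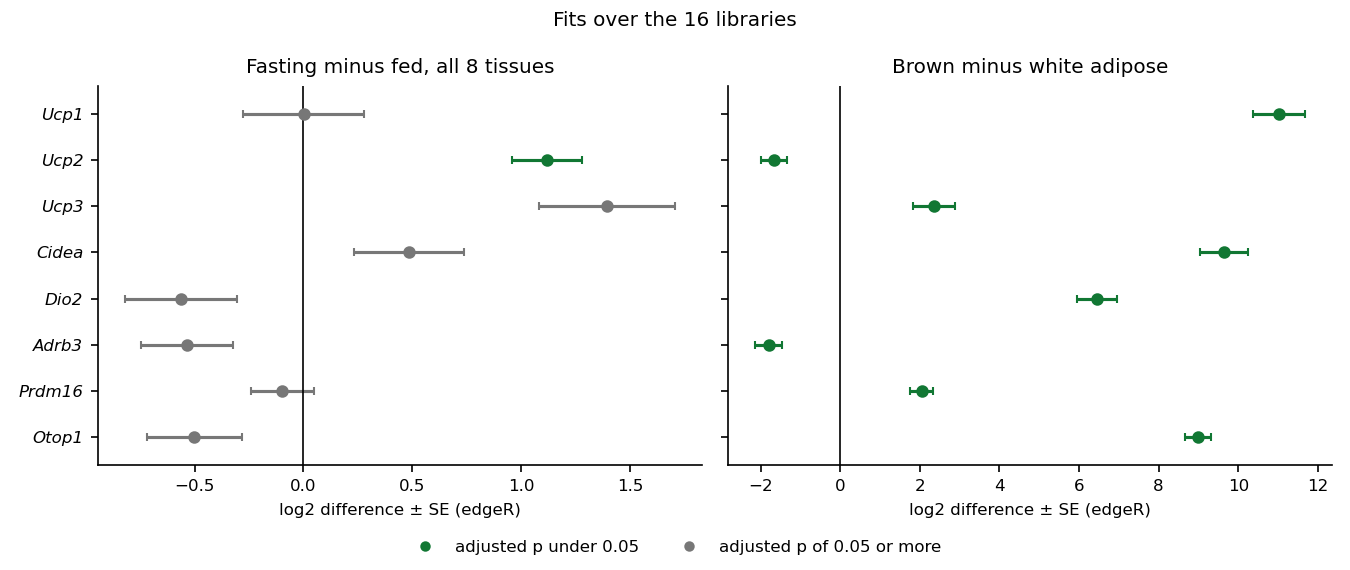
Log2 difference of each gene with its standard error from edgeR fits over the 16 libraries, fasting minus fed over 8 tissues on the left and brown minus white adipose on the right, on separate axes. Ucp2 is called in both, higher in fasting and lower in brown than in white adipose, and Ucp3 is just short of the threshold on the left.

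Brown and white adipose were set side by side over their 2 libraries each, with treatment in the model. All 8 members differed. Of these, 6 were higher in brown adipose, where 18.2% of all genes were called higher, namely Ucp1 by 11.01 (SE 0.65) on the log2 scale, Cidea by 9.64 (SE 0.60), Otop1 by 8.99 (SE 0.34), Dio2 by 6.45 (SE 0.51), Ucp3 by 2.37 (SE 0.53) and Prdm16 by 2.04 (SE 0.29), at adjusted p of 2.08e-07 to 0.00469. Adrb3 and Ucp2 were lower in brown adipose, with differences of -1.80 (SE 0.34) and -1.67 (SE 0.32), at adjusted p of 0.00224 and 0.00194, where 20.5% of genes were called lower. Over the alternatives these 2 differences ran from -2.60 to -1.25 and from -2.05 to -1.49, and that of Dio2 from 5.83 to 7.44. Without the fed brown library the Ucp3 difference was 1.07 at an adjusted p of 0.103. Against the mean of the other 7 tissues, Ucp2 was lower in brown adipose, with a difference of -1.13 (SE 0.26), and the other 7 members were higher, where 21.7% of genes were called higher and 17.9% lower. That comparison gave Ucp3 a difference of 4.30 (SE 0.33) and Prdm16 one of 1.94 (SE 0.18). Over the alternatives Ucp3 ran from 3.08 to 5.11 and Prdm16 from 1.35 to 2.37. Without the fasting brown library the Ucp2 difference was -0.95 at an adjusted p of 0.100. The remaining 5 members had tissues at or under 3 counts, which makes the size of their fitted difference depend on the model's prior count. Otop1 passed the filter on low counts only through its brown adipose libraries, at 184 and 120 CPM, with at most 0.43 CPM elsewhere. Its tests in both comparisons, which gave the lowest adjusted p above, were thus settled by that filter and add nothing to these levels.

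Around the members, genes of the same pathways in brown adipose moved in both directions. The background there was 5.39% of all genes with a count called higher and 7.58% lower. Of 30 genes known from brown adipocytes, 29 were measured above the floor, 8 were called higher and 6 lower, with a median log2 change of -0.17 against -0.03 for all genes with at least 1 CPM in a library. Slc27a2, an acyl-CoA synthetase, rose from 230 to 783 CPM and Elovl3, a fatty acid elongase, from 10.4 to 29.4 CPM. Acot11, an acyl-CoA thioesterase that is induced by cold, fell from 518 to 110 CPM and Clstn3 from 249 to 104 CPM. Of 17 adrenergic and cyclic AMP genes above the floor, 4 were called higher and 2 lower (median 0.04). Besides the fall of Adrb1, Pde3b, the phosphodiesterase through which insulin lowers cyclic AMP, rose from 629 to 1123 CPM and Akap1 fell from 584 to 355 CPM.

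Heat cycles that do not use Ucp1 are the creatine cycle, calcium cycling through SERCA pumps and the proton leak of the ADP/ATP carriers. Of 14 genes of these cycles, 7 were called lower and 1 higher in brown adipose, with a median log2 change of -0.66, against 7.58% and 5.39% of all genes with a count and a median of -0.03. Ckmt2, the mitochondrial creatine kinase of striated muscle, fell from 19.6 to 5.05 CPM and Atp2a1, the SERCA pump of fast muscle, from 391 to 172 CPM, while Slc6a8, the creatine transporter, rose from 48.0 to 104.0 CPM. Ckmt2, Atp2a1 and Ryr1 are also muscle genes, and the skeletal muscle markers fell in the same library from 2624 to 1167 CPM. The part of muscle tissue in these falls was not tested. In muscle itself 7 of 14 were called lower and none higher (median -0.48), among them Alpl, from 10.7 to 2.97 CPM, and Atp2a2, from 130 to 77.4 CPM. In muscle 9.39% of all genes with a count were called lower and 4.42% higher, and the median of all genes with at least 1 CPM was -0.14.

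The same background of 5.39% and 7.58% applies to the next lists, whose counts are small. Of 6 carriers of the family related to the uncoupling proteins, 2 were called higher and 1 lower in brown adipose (median 0.14). Slc25a30 rose from 13.97 to 22.3 CPM and Slc25a10, the dicarboxylate carrier, fell from 28.8 to 7.72 CPM. Of 12 thyroid hormone genes above the floor, 3 were called higher and 4 lower (median -0.19). Thrsp, a thyroid hormone responsive gene of lipid synthesis, fell from 2176 to 664 CPM and Hr from 26.9 to 13.8 CPM, while Klf9 rose from 210 to 446 CPM and the corepressor Ncor1 from 344 to 505 CPM. Among 9 measured paralogs of the members and partners of Prdm16, 1 was called higher and 1 lower (median 0.11), a share near the background. Cidec, the lipid droplet paralog of Cidea, rose from 705 to 1528 CPM. In the fit over 8 tissues, 88 genes of these lists were fitted, 4 were called higher and 2 lower, against 243 higher and 198 lower of all 23580 genes.

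**Figure D5:**
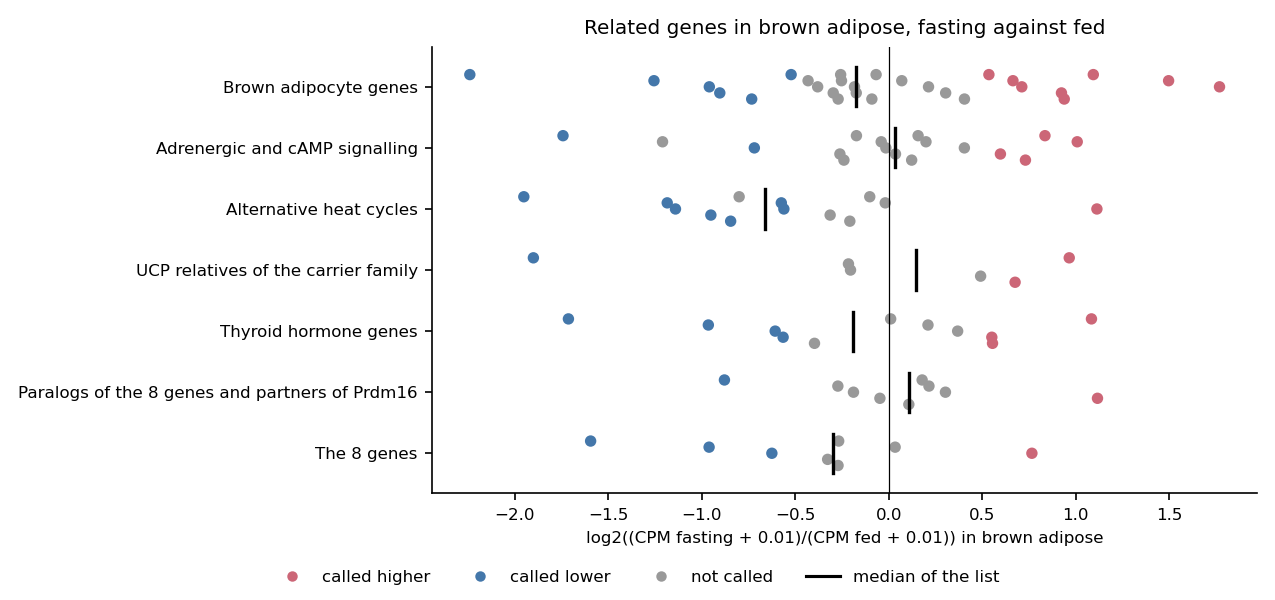
Log2 change in brown adipose, fasting against fed, of each gene of the 6 related lists and of the 8 genes themselves, coloured by call, with the median of each list as a bar. Genes with fewer than 10 counts in both libraries are not drawn but enter the medians, and the heat cycle list has the lowest median at -0.66.

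The genes whose levels were most like those of a member were sought over the 16 libraries by Pearson's correlation of log2(CPM + 1), among 14907 genes with at least 10 CPM in a library. The points share tissues and pools, and for genes of 1 tissue the value reflects that tissue alone, so no test was made. Otop1 was the gene most like Ucp1 (r = 0.988), followed by Gm48397, A530065N20Rik, AC153155.2 and 9130214F15Rik, and A530065N20Rik was most like Otop1 (r = 0.996). Dio2 was most like Cidea (r = 0.938) and Gnas, the stimulatory G protein alpha subunit, most like Dio2 (r = 0.959). Among the 5 genes nearest to Ucp3 were Nfe2l1 (r = 0.934), Hipk3, Cdnf and Art3. Ucp2 was closest to Ip6k1 (r = 0.963), then Gm43022, Ldb1, Serinc3 and Jade2. Among the 5 nearest to Adrb3 were Lgals12 (r = 0.956), A530020G20Rik, Adipoq and Cidec, and for Prdm16 the 5 nearest were Pdgfd (r = 0.948), Chn1, Klhl9, Dok4 and Btbd2. With Spearman's correlation, at most 2 of the 5 nearest genes of any member were the same. Among the members, Ucp2 was the least like the others, with r between -0.33 for Ucp3 and 0.32 for Prdm16.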

How the data were processed

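Total RNA was sequenced from 16 pooled tissue samples, 1 per tissue and treatment, as strand-specific paired-end libraries. The authors trimmed reads with fastp 0.23.2, used HISAT2 2.2.1.0 for alignment (GRCm38) and deposited raw counts per gene from featureCounts (Subread 2.0) on GENCODE vM24, with each gene's exon length. Whether counting used strand was not given in the sources used here, so overlapping genes of opposite strands may share reads. Gene symbols came from GENCODE vM21 for 55144 of 55385 identifiers, and the 37 mitochondrial genes had 0 counts.

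CPM were computed on library totals. Within tissues, the study's test was applied (scipy 1.17.1, two-sided Fisher's exact test). Across tissues, edgeR 4.0.16 quasi-likelihood fits (R 4.3.3) used TMM factors, filterByExpr on the design and Benjamini-Hochberg adjustment over all genes fitted, with DESeq2 1.42.0 as an alternative. Residual degrees of freedom were 7, or 6 with an interaction. Standard errors were the log2 difference over the root of F. Both steps were tested on simulated data. The members and gene lists were chosen with earlier results of these data known. Named genes are all 8 members, up to 4 called genes per list with the largest rises and falls in brown adipose at 10 CPM or more, up to 2 of the heat cycle list in muscle, and the 5 genes most like each member. A few genes that this rule names are not reported here. With 1 library per group, p-values of the fits over tissues measure the spread of the response between tissues.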

Additional observations from a re-analysis of the deposited data

Results flagged for a closer look

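Ucp1 was called in opposite directions in different tissues, and the difference was not tested. The log2 change from fed to fasting was 0.75 in muscle and 1.86 in kidney, and -1.27 in lung. Each of these values rests on 13 to 105 counts a library, at levels under 4 CPM, beside 3132 CPM in fed brown adipose.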

How the results depend on the processing

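The counts of member calls within tissues, 17 higher and 8 lower, kept within 1.5 times under TMM factors, DESeq2 size factors, a total without the 10 highest genes, a pseudocount of 1 CPM, a minimum of 1 CPM and adjusted p, and no called change reversed. Requiring an adjusted p under 0.01 cost the calls of Ucp1 in muscle and Ucp3 in kidney. Above a log2 change of 1, 4 lower calls were left. An assumed coefficient of variation between pools of 0.2 left 10 higher and 4 lower calls, and one of 0.4 left 1 higher and 0 lower. Across tissues, where 1 member was called, 2 were called (Ucp2 and Ucp3) by DESeq2, with library totals alone, with no filter on low counts, without both adipose tissues, without white adipose and without brown adipose, and 0 with no tissue block. A filter over the treatment groups, chosen after seeing the data, also gave 2, with Ucp3 at an adjusted p of 0.0385. In the adipose interaction, where none was called, 1 (Ucp3) was called by DESeq2, with no filter on low counts and without lung. The causes were not tested. Between 7 and 8 members differed between brown and white adipose, and between brown adipose and the mean of the other 7 tissues, over all alternatives, and the striated muscle interaction gave 0 in each. The tissue block pairs the fed and the fasting library of each tissue, and each group held 1 library, so there was no replicate number to pair by. Genes below about 0.2 CPM cannot be told from absence at these depths, and no pool was replicated.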
